A study of Mus musculus with 4 samples.

Results

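The genes described are 10 heat shock chaperones, taken by name from the 27998 genes of 4 single-cell RNA libraries of mouse heart endothelium. Of these 10, 6 were grouped as inducible (Hspa1a, Hspa1b, Hspb1, Dnajb1, Hsph1 and Hsp90aa1) and 4 as constitutive (Hspa8, Hsp90ab1, Hspe1 and Hspd1). The libraries were prepared from C57Bl6J hearts at E12 (37 pooled animals), E15 (48), P2 (21) and 8 weeks of age (6), with 1 library for each stage and no genetic or drug treatment. Cells that were CD31+ and CD45- were sorted, frozen with DMSO and thawed. Hearts were digested at 37 °C for 20 min at E12 and 30 min at E15 with Collagenase/Dispase, whereas P2 and adult hearts received 20 min of Collagenase II followed by 30 min of Collagenase/Dispase. Dead cells were removed on a column from the embryonic samples and by a second sort for live cells from the postnatal samples. Stage and handling therefore cannot be told apart in any comparison between stages.

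Heat shock chaperones hold unfolded proteins, help them refold and keep them from clumping. The inducible genes are switched on within minutes when heat shock factor 1 binds heat shock elements in their promoters, as it does after heat, oxidative or other proteotoxic stress, whereas the constitutive genes are transcribed in unstressed cells as well. Both chaperones and immediate-early genes such as Fos and Atf3 are known to be turned on in cells that are dissociated from solid tissue at body temperature.

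Hspa1a and Hspa1b encode the inducible HSP70 proteins. They lie next to each other on mouse chromosome 17 (GRCm38), at chr17:34969190-34972156 and chr17:34956436-34959238 on the minus strand, with 9951 bases between them. Hspb1, which encodes the small heat shock protein HSP27, lies at chr5:135887919-135889563 on the plus strand. Dnajb1, an HSP40 that hands substrates to HSP70, lies at chr8:83608193-83612653. Hsph1, the HSP110 that exchanges nucleotide on HSP70, lies at chr5:149614287-149636376. The cytosolic HSP90 genes are Hsp90aa1 at chr12:110690605-110702728 and Hsp90ab1 at chr17:45567775-45573271. Hspa8, the constitutive HSP70 of the cytosol, lies at chr9:40800984-40810087. The mitochondrial chaperonin HSP60 (Hspd1, chr1:55077835-55088243, minus strand) and its lid HSP10 (Hspe1, chr1:55088132-55091307, plus strand) are transcribed away from each other, and their annotated 5′ ends overlap by 112 bases.

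Promoter sequences bear on the members because heat shock factors read inverted GAA units. RefSeq promoters (GRCm38.p6) were at hand for 7 members and were searched over the 250 bases before the start for 2 inverted units in either order, GAANNTTC and TTCNNGAA, both of which read the same on both strands. Either form was found before at least 1 start of 14.5% of 27025 genes, and in 12.8% of 32851 promoters. Among the members with a promoter, 4 of 5 inducible and 2 of 2 constitutive genes held a match. The stretches below are written 5′ to 3′ on the strand of the gene, and capitals mark the matched units. Distances are counted to a RefSeq start, and the Hsph1 match lies 54 bases before a second such start. By the gene coordinates given above, which are from another annotation, most of the Hsph1 stretch lies inside Hsph1. The Hspe1 stretch lies inside the overlapping gene Hspd1.
Hspa1a (chr17:34972228-34972285, minus strand, match starting 104 bases before the start): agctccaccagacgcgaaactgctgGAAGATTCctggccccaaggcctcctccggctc
Hspb1 (chr5:135887777-135887854, plus strand, 117 and 97 bases): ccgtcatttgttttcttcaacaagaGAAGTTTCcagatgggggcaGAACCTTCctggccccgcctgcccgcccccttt
Hsph1 (chr5:149636351-149636380, minus strand, 33 bases): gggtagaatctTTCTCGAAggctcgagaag
Hspe1 (chr1:55088053-55088082, plus strand, 89 bases): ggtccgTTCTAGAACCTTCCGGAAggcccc

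The Hspa1b stretch (chr17:34959310-34959367) had the same letters as that of Hspa1a, and the 250 bases before the starts of this pair differed at 3 positions. In Hspe1 the matches run into one another. They make the longer form of 3 units in alternating order (TTC, GAA, TTC or GAA, TTC, GAA, each 2 bases apart) 2 times, once in each order and in overlap. The same bases lie before a second start of Hspd1 on the opposite strand, 144 bases upstream of it. No match lay before the first start of Hspd1, so that the matches of both constitutive genes are the same stretch. The exact form with 3 units was found in 0.514% of all genes and 0.466% of all promoters. Among the members it was found in these 2 constitutive genes and in 0 of 5 inducible genes. Only units with every letter matched were counted, so that longer arrays with a changed unit were missed. These counts therefore do not show that the inducible genes lack such arrays. Of the inducible genes, Dnajb1 held no match before either of its starts.

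Hspa1a and Hspa1b are close copies, and reads from them can be confused. Their reading frames are 99.4% identical, whereas the last 300 bases of their transcripts, where 3′ reads start, are 50.1% identical. Their counts are given apart for this reason, but a read from the coding part could belong to either gene.

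Unique molecular identifiers (UMIs) mark single captured RNA molecules, and levels are given as CPM, the UMIs of a gene scaled to the total UMIs of a group of cells. All members together took 0.472% of the UMIs at E12, which is 4723 CPM, and 0.383%, 0.467% and 0.845% in the later libraries. The 4 libraries held 4242 to 6062 cells and 7079759 to 29645059 UMIs, with median depths of 1013 (E15) to 4531.5 UMIs (P2) per cell. Coronary cells were those with at least 2 UMIs of Fabp4, Cldn5 and Aplnr and more of these than of Npr3 and Tmem108. From the youngest to the oldest library they numbered 113, 1254, 4596 and 4077, and all series of 4 values below keep this order. Endocardial cells had more Npr3 and Tmem108 than coronary UMIs and numbered 1716, 2115, 1082 and 75. Cells without a UMI of Pecam1, Cdh5 or Egfl7 were called non-endothelial (2995, 1867, 13 and 133), and this class shares cells with the other classes, up to 596 with the endocardial class at E12. These rules left 1511, 1552, 204 and 59 cells in no class. The 13 non-endothelial cells at P2 are too few to describe. All 8 endothelial markers checked were detected in the coronary and endocardial cells of every stage, and the 5 of them that do not define the non-endothelial class were also detected in non-endothelial cells. Between 25 and 60 barcodes were shared by each pair of libraries. All intervals are exact 95% intervals that cover counting error only, and no p-value can be given with 1 library for each stage.

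Inducible and constitutive chaperones of coronary cells parted between P2 and the adult. Summed over the 6 inducible genes, coronary cells held 642, 657, 1043 and 4888 CPM. The 4 constitutive genes held 4651, 3474, 3798 and 3835 CPM. The inducible sum was thus lowest in the embryo and highest in the adult, and the constitutive sum was highest at E12. The ratio of adult to P2 was 2.23 (2.21 to 2.25) on the log2 scale for the inducible and 0.01 (-0.01 to 0.03) for the constitutive genes. Endocardial cells held 915, 644, 676 and 699 CPM of the inducible genes, and their ratio of adult to P2 was 0.05 (-0.20 to 0.29).

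The share of inducible RNA within the chaperone UMIs was compared as well. In the coronary class it was 12.1% (10.4 to 14.0) at the earliest stage and 15.9%, 21.5% and 56.0% (55.6 to 56.4) at the later ones. Endocardial cells stayed between 17.0% and 19.1% at all stages. Adult non-endothelial cells held 49.5% (46.9 to 52.0).

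**Figure D1:**
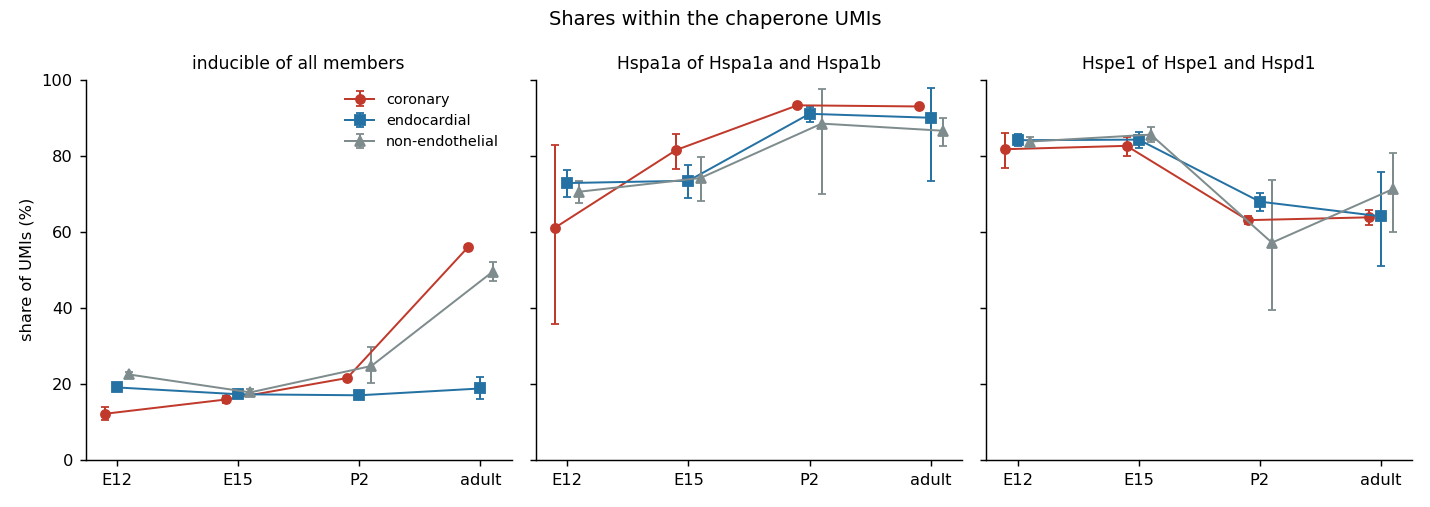
Share of UMIs in percent (y axis) by stage (x axis) for inducible chaperones among all members, Hspa1a among the HSP70 pair and Hspe1 among the chaperonin pair, with exact 95% binomial intervals, for coronary (red circles), endocardial (blue squares) and non-endothelial cells (grey triangles). The inducible share of coronary cells is 21.5% at P2 and 56.0% at 8 weeks, whereas the adult endocardial share is 18.8%.

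A gene was counted as higher or lower when the ratio of its CPM was at least 2 or at most 0.5 and both groups together held at least 20 UMIs, which is a rule of size and not a test. From P2 to adult, 5 of the 6 inducible and 0 of the 4 constitutive genes were higher in coronary cells, where 11.4% of all compared genes were higher, and no member was lower (13.4% of all genes). From E15 to P2, Hspa1a was higher (19.4% of all genes), just past the limit at a ratio of 2.01, and Hspe1 lower (5.44%). From E12 to E15, Hspa1a was higher (13.3%), and Hspd1, Hspe1 and Hsph1 were lower (5.21%). The median over all genes was 0.05, 0.35 and 0.01 log2 units for these 3 steps in order of age, so that the median gene was higher at P2 than at E15. In endocardial cells no member was counted from E12 to E15 (3.85% of all genes higher, 4.79% lower). From E15 to P2 Hspa1b and Hspe1 were lower there (5.7%) and none was higher (12.9%).

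Hspa1a showed the widest range of the members. Coronary cells held 45.3 (11 UMIs), 139, 281 and 2363 CPM of it. The ratio of adult to P2 was 3.07 (3.03 to 3.12) log2 units. Adult coronary cells thus held more UMIs of this stress gene than of Hspa8, the constitutive HSP70, at 1998 CPM. These levels are compared between genes without a correction for transcript length, since each UMI stands for 1 molecule counted at its 3′ end. Endocardial cells stayed between 129 and 189.6 CPM of Hspa1a at every stage. The adult coronary cells also differed from P2 in markers of other cells, which stood at 476 against 25.6 CPM for 5 erythroid, 72.9 against 0.719 CPM for 5 immune and 367 against 65.3 CPM for 5 mural markers. Adult coronary cells without a UMI of the erythroid and immune markers held 2297 CPM of Hspa1a, and those with one held 3008 CPM.

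The neighbour Hspa1b had fewer UMIs at every stage and differed in its course between E15 and P2. It was at 28.8, 31.5, 20.3 and 179 CPM in coronary cells in order of age, and at 70.7, 46.6, 15.1 and 14.4 CPM in endocardial cells. Endocardial cells therefore held less Hspa1b at P2 than at E15, by -1.63 (-2.06 to -1.20) log2 units, while their Hspa1a differed by 0.25 in the other direction. Over all cells, Hspa1a took 70.4% (68.3 to 72.4), 76.8%, 93.0% and 92.9% (92.5 to 93.3) of the UMIs of the pair. The share of Hspa1a was thus higher in both postnatal libraries, in coronary and in endocardial cells alike, although adult endocardial cells held only 30 UMIs of the pair.

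Hspb1 encodes HSP27, which binds actin as well as unfolded proteins. It kept the order of Hspa1a in coronary cells, at 61.7, 82.1, 154 and 1544 CPM. Its ratio of adult to P2, 3.33 (3.27 to 3.38) log2 units, was the largest of the 10 members. Hspb1 was also the 1 member that was higher in adult than in P2 endocardial cells, where 10.8% of all genes were higher and 19.8% lower. The values there were 75.7 and 206 CPM, a ratio of 1.44 (0.96 to 1.90) log2 units from 43 adult UMIs. Hspa1a and Hspb1 together made up 16.7%, 33.7%, 41.7% and 79.9% of the inducible UMIs of coronary cells. The other 4 inducible genes were summed at 608 CPM at P2 and 981 CPM in the adult.

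The co-chaperones of HSP70 differed less between stages. Coronary cells held 37.0, 52.4, 91.1 and 187 CPM of Dnajb1, so that each value was above the one before it, although the interval of the first step includes 0 (0.50 log2 units, from -0.49 to 1.68, with 9 UMIs at E12). Endocardial cells held 98.6, 65.0, 54.0 and 43.1 CPM, in the opposite order. None of these steps was counted as lower, at ratios of 0.659, 0.831 and 0.798, and the last rests on 75 adult cells. Hsph1 was the rarest member from E15 on, at 37.0, 14.9, 18.6 and 38.0 CPM in coronary cells. Its adult level was 1.03 (0.81 to 1.25) log2 units above P2 and close to that at E12.

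Hsp90aa1, the inducible HSP90, behaved more like the constitutive genes. It was at 432, 336, 478 and 577 CPM in coronary cells and at 391, 298, 347 and 273 CPM in endocardial cells. From P2 to adult it was 0.27 (0.22 to 0.32) log2 units higher in coronary cells, the smallest ratio of the 6 inducible genes. Its partner Hsp90ab1 was the most abundant member in the embryo, at 2317 and 1642 CPM in coronary cells at E12 and E15, and was at 1482 and 1526 CPM after birth. Hspa8 went the other way, from 1140.2 and 1257 CPM before birth to 1982 and 1998 CPM after it, and was then above Hsp90ab1. The P2 and adult values of both genes differed by at most 0.04 log2 units. Endocardial cells held 1087, 932, 1498 and 1466 CPM of Hspa8 and 1963, 1633, 1509 and 1250 CPM of Hsp90ab1, so that Hspa8 was the higher of both in the adult alone.

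**Figure D2:**
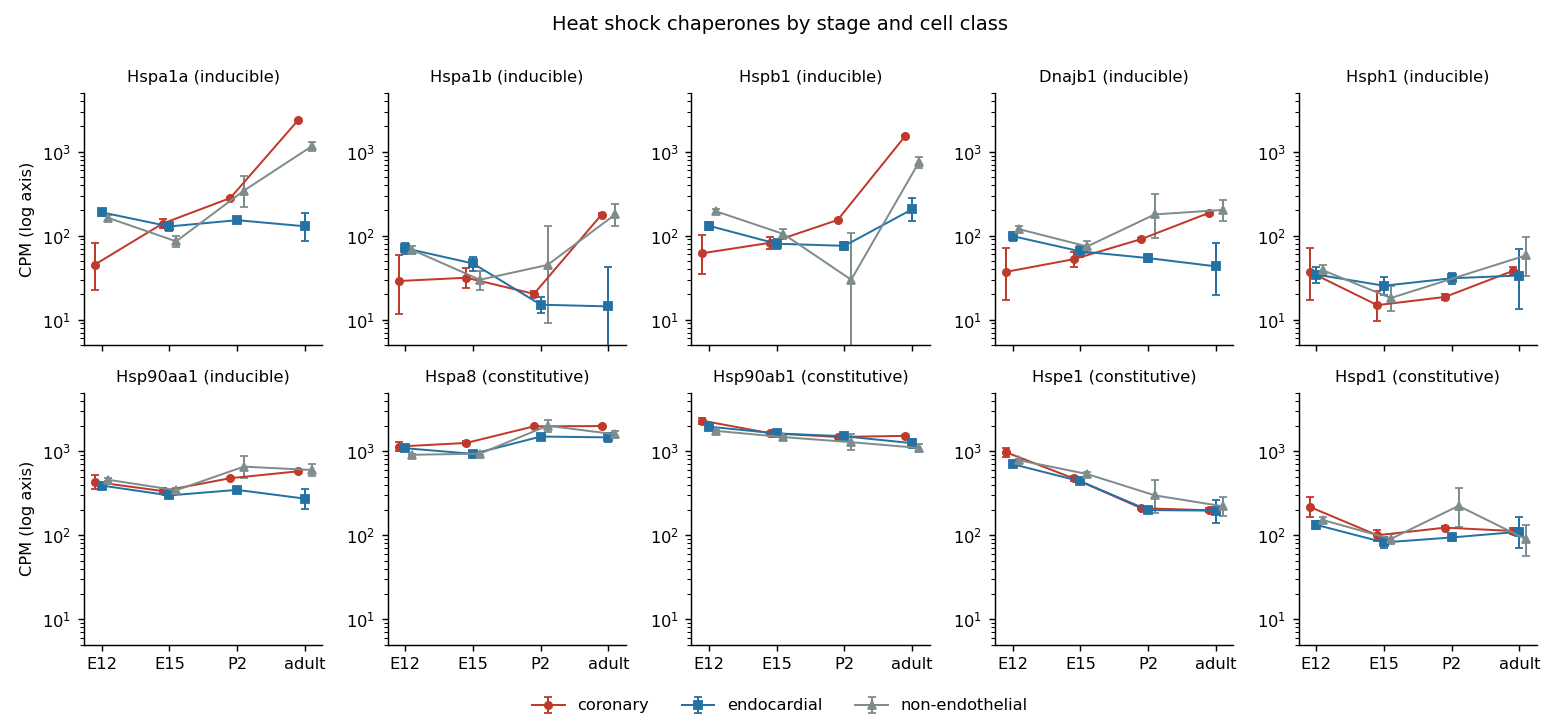
CPM on a log axis (y) by stage (x) for each of the 10 chaperones, with exact 95% Poisson intervals, in coronary (red circles), endocardial (blue squares) and non-endothelial cells (grey triangles), where a point with 0 UMIs is left out. The coronary line separates from the endocardial line in the adult for Hspa1a (2363 against 129 CPM) and Hspb1 (1544 against 206 CPM), whereas both lines lie together for Hspe1.

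Among the constitutive genes the chaperonin pair differed most between stages. Hspe1 was at 976, 475, 210.3 and 198 CPM in coronary cells, and at 703, 439, 199.6 and 196 CPM in endocardial cells. It was lower at each of the first 2 steps, by -1.04 (-1.25 to -0.82) and -1.18 (-1.28 to -1.07) log2 units in coronary cells, and the last step was -0.08 (-0.17 to 0.001). Hspd1 encodes the ring that HSP10 closes. Its RNA was at 218 CPM at E12, 123 CPM at P2 and 113 CPM at 8 weeks in coronary cells. From E12 to E15 it was lower by -1.13 (-1.58 to -0.65) log2 units, as Hspe1 was, whereas from E15 to P2 it was higher by 0.30 (0.08 to 0.53). Over all cells, Hspe1 took 83.9% (83.0 to 84.7), 84.1%, 63.7% and 64.0% (62.1 to 65.9) of the UMIs of the pair. The shift between E15 and P2 was seen in coronary (82.6% to 63.1%) and endocardial cells (84.2% to 67.9%).

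Coronary and endocardial cells of 1 library were prepared together, so that handling is shared within a stage. At E12, Hspa1a, Hspa1b, Hspb1 and Dnajb1 were lower in coronary than in endocardial cells, where 21.9% of all genes were lower, and none was higher (5.37%). Hspa1a was at 45.3 against 189.6 CPM, a ratio of -2.07 (-3.08 to -1.21) log2 units that rests on 11 coronary UMIs. At this stage 596 of 1716 endocardial and 7 of 113 coronary cells also met the non-endothelial rule. Endocardial cells held 1267 CPM of erythroid and 906 CPM of fibroblast and mesenchyme markers, against 140 and 173 CPM in coronary cells. Immune markers stood at 7.68 against 8.23 CPM. The part of such cells in the E12 class difference was not tested. At E15 no member was counted, where 5.66% of all genes were higher and 12.4% lower, and the inducible sums were 657 and 644 CPM. At P2, Hspb1 alone was higher (11.2% of all genes) and none lower (10.4%). The Hspb1 difference was 1.02 (0.87 to 1.18) log2 units, and Hspa1a stood 0.88 (0.77 to 0.98) higher, under the limit.

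In the adult, all inducible members but Hsph1 were higher in coronary than in endocardial cells, 5 of 6 where 22.6% of all genes were higher and 13.9% lower. The largest differences were 4.19 (3.65 to 4.79) log2 units for Hspa1a, 3.64 (2.09 to 5.92) for Hspa1b and 2.91 (2.48 to 3.37) for Hspb1. Of all compared genes, 88.5%, 88.4% and 87.7% had a smaller ratio than these 3 members. Few genes thus lay between the ratios of Hspb1 (7.50) and Hspa1a (18.3). Any compared gene with 0 endocardial UMIs ranks above these members, however few its coronary UMIs. The ranks therefore do not show how common measured ratios of this size were. Dnajb1 was higher by 2.12 (1.19 to 3.25) and Hsp90aa1 by 1.08 (0.70 to 1.48). Hsph1 differed by 0.18 with an interval from -0.88 to 1.51. The constitutive sum was 0.34 (0.23 to 0.46) log2 units higher in coronary cells. Only 75 adult cells were endocardial, and they held 146 inducible UMIs, 3 of them from Hspa1b. Fibroblast and mesenchyme markers stood at 2769 CPM in these cells (4 of 5 detected, Col1a1 at 0) against 576 CPM in adult coronary cells (5 of 5), while all 5 immune markers were at 0. The part of these markers in the class difference was not tested.

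At E12 and in the adult, non-endothelial cells differed less from the endothelial cells of their own library than coronary from endocardial cells did. No member was counted at E12 (6.74% of all genes higher and 4.85% lower), at E15 (6.6% and 2.95%) or in the adult (12.7% and 21.2%), and at P2 2 were higher (14.8%) and 2 lower (47.1%) in 13 cells. Hspa1a was 0.98 log2 units lower in adult non-endothelial cells, at 1155 CPM, just inside the limit, and Hspb1 1.00 lower, at 747 CPM. Of these 133 cells, 101 also met the coronary rule, and fibroblast and mesenchyme markers summed to 9651 CPM in them.

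The higher adult level was spread unevenly over the cells, although a gene that is not detected in a cell may still be present in it. Cells were thinned to 500 UMIs, which removes differences in depth and leaves out shallower cells (66 coronary cells at E15 and 0 at the other stages). Hspa1a was then found in 2.65% (0.551 to 7.56), 5.22%, 8.96% and 34.1% (32.7 to 35.6) of coronary cells. Without thinning the shares were 8.85%, 10.4%, 28.2% and 49.4%, at median depths of 1997, 1169.5, 4561.5 and 1485 UMIs. Hspb1 was found in 1.77%, 2.86%, 6.61% and 38.8% of thinned coronary cells, so that in the adult slightly more cells showed Hspb1 than Hspa1a although its CPM was lower. No class here should lack chaperone RNA, so that free RNA in the droplets cannot be set against these shares, and among E12 barcodes of 1 to 49 UMIs Hspa1a was at 279 CPM against 167 in called cells.

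The adult cells with Hspa1a also differed in how much they held. Of 4077 thinned adult coronary cells, 2686 had no UMI of Hspa1a, 524 had 1, 568 had 2 to 4, 241 had 5 to 9 and 58 had 10 or more of their 500 UMIs. At P2 a single cell of 4596 had 10 or more, and at E12 and E15 none had 5 or more. The ratio of variance to mean for Hspa1a was 0.98, 1.53, 2.54 and 4.70 in order of age, where 1 is the value for UMIs spread at random over cells. For Hspe1 it stayed between 1.03 and 1.11. The E12 value for Hspa1a comes from 3 cells with 1 UMI each. This ratio can rise with the mean, which for Hspa1a also rose with stage, so that it does not rank the stages by unevenness. Before thinning, the tenth of coronary cells richest in Hspa1a held 100% (11 UMIs), 97.9%, 80.3% and 61.1% of its UMIs in order of age. The adult value for Hsp90ab1 was 36.2%. The Hspa1a share was thus lowest in the adult, although it is also larger where fewer cells hold a UMI.

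Cells with Fos held more inducible chaperone RNA than cells without it, by the largest ratio in the adult. Endothelial cells were split by a Fos UMI, which 511 of 2737, 736 of 4195, 4140 of 5871 and 1796 of 4109 cells had. In the adult, 6 of 6 inducible and 0 of 4 constitutive members were higher in cells with Fos, where 3.24% of all genes were higher and 1.66% lower. At P2, Hspa1a, Hspa1b, Hspb1 and Dnajb1 were higher and none lower (1.96% and 1.06% of all genes). At E12, Hspb1 alone was higher (4.76%) and none lower (3.42%), and at E15 no member was higher (3.67%) or lower (2.96%).

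Hspa1a had the largest ratio of the members at P2 and in the adult. Adult cells with Fos held 3889 CPM and those without 511 CPM, 7.61 (7.25 to 8.00) times as much. At P2 the values were 317 and 68.0 CPM (4.67, from 4.26 to 5.12), at E15 159.9 and 135 CPM (1.18, from 0.993 to 1.40), and at E12 234 and 152 CPM (1.54, from 1.31 to 1.81). The interval at E15 includes 1. In coronary cells alone the inducible sum at E12 was lower with Fos, by -0.18 log2 units with an interval from -0.89 to 0.47. Hspb1 was 2.02, 1.50, 2.04 and 3.11 times as high in cells with Fos. Dnajb1 was 1.67, 1.77, 2.31 and 5.26 times as high, with 296 against 56.3 CPM in the adult. Hsp90aa1, whose stage levels resembled those of the constitutive genes, was 3.40 (3.15 to 3.66) times as high in adult cells with Fos, at 849 against 250.05 CPM.

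Constitutive members also differed in the adult, by less. Hspa8 was 1.79 (1.73 to 1.86) and Hsp90ab1 1.60 (1.54 to 1.66) times as high in adult cells with Fos, and both ratios at E15 were 1.06. The sum of the constitutive genes was 1.08, 1.06, 1.21 and 1.70 times as high, against 1.54, 1.22, 2.00 and 4.77 for the inducible genes. Cells with Fos were deeper, with medians of 1936.5 against 1286 UMIs in the adult, and a deeper cell shows a Fos UMI more readily.

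**Figure D3:**
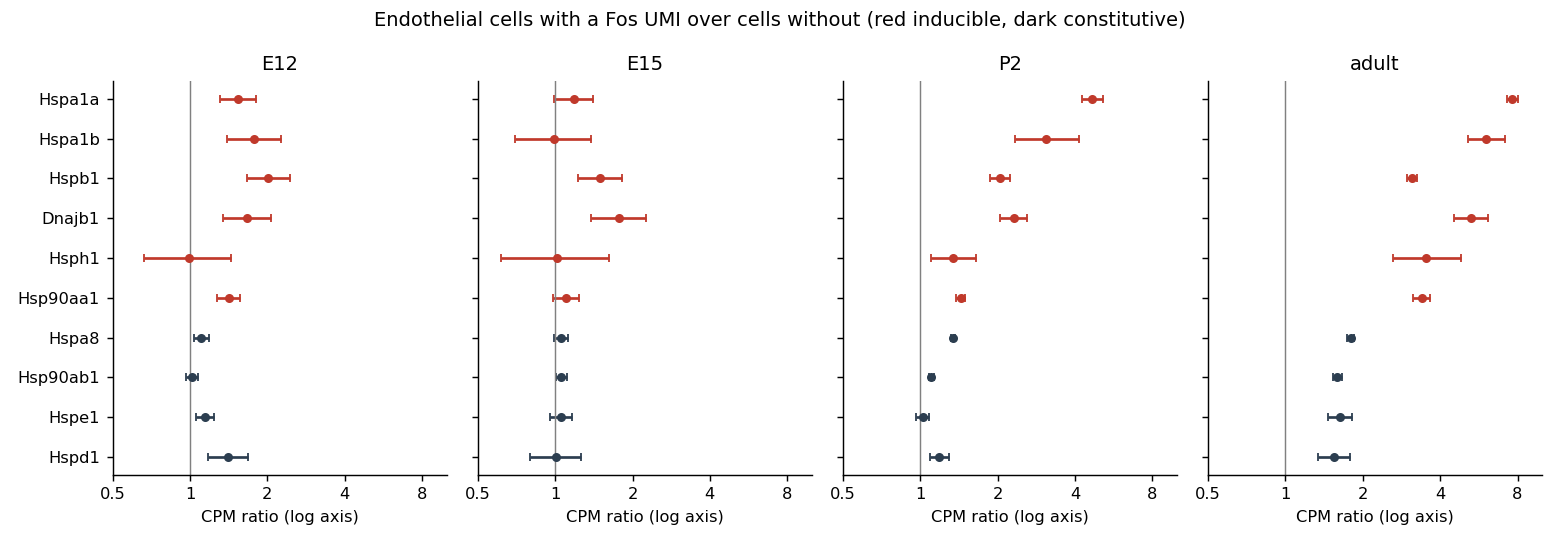
Ratio of CPM on a log axis (x) in endothelial cells with a Fos UMI over cells without one, for each member (y), at the 4 stages, with exact conditional 95% intervals. Inducible members are red and constitutive members dark. The red points lie further right at P2 than at E15 and furthest in the adult, where Hspa1a is at 7.61 and the dark points lie between 1.55 and 1.79.

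Depth was made equal by thinning coronary cells to 500 UMIs and counting their Fos UMIs. In the adult, Hspa1a had a mean of 0.436 UMIs in 2878 cells without Fos, 1.65 in 534 cells with 1 Fos UMI, 2.61 with 2, 2.78 with 3 and 4.19 with 4 or more (299 cells). The means at P2 were 0.0756, 0.221, 0.281, 0.367 and 0.316. Adult cells therefore held more Hspa1a at each number of Fos UMIs, and cells without Fos in the adult held more than P2 cells with 4 or more. The constitutive sum went from 1.44 to 3.67 UMIs over the same range in the adult and from 1.72 to 2.29 at P2.

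**Figure D4:**
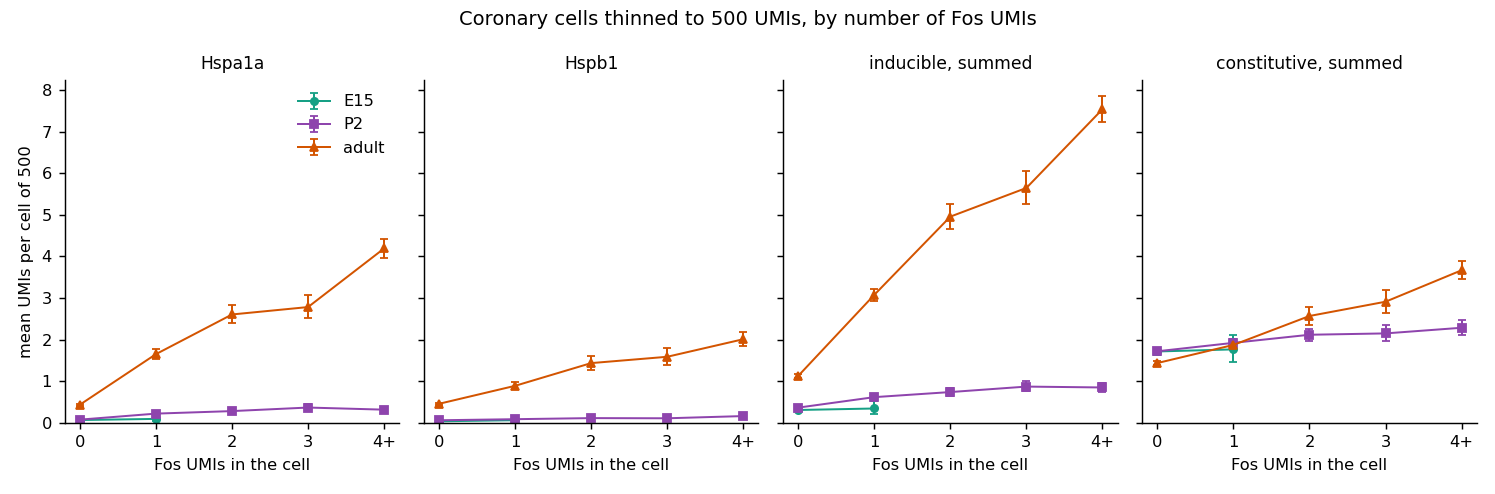
Mean UMIs per cell of 500 (y) for Hspa1a, Hspb1 and the inducible and constitutive sums, by the number of Fos UMIs in thinned coronary cells (x), at E15 (green circles), P2 (purple squares) and in the adult (orange triangles), with exact 95% Poisson intervals and bins of under 20 cells left out. The adult line for Hspa1a goes from 0.436 to 4.19 and the P2 line lies between 0.0756 and 0.367.

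Cells in which no Fos was seen give the stage comparison with less of this gene. Adult coronary cells without a Fos UMI held 529 CPM of Hspa1a and 736 CPM of Hspb1, against 61.3 and 75.7 CPM at P2. Their inducible sum, 1639.9 CPM, was below their constitutive sum of 2782 CPM, the reverse of all adult coronary cells. The inducible step from P2 to adult was 1.54 (1.48 to 1.60) log2 units in such cells, against 2.23 in all coronary cells. From E15 to P2 it was -0.16 (-0.27 to -0.05) in such cells against 0.67 (0.58 to 0.76) in all. The P2 library is deeper, so that having no Fos UMI is a stricter choice there. In cells thinned to 500 UMIs and without a Fos UMI among them, the inducible sum had a mean of 0.308 (0.276 to 0.342) UMIs at E15, 0.365 (0.343 to 0.388) at P2 and 1.13 (1.09 to 1.17) at 8 weeks. The direction from E15 to P2 therefore differed between both ways of choosing cells without Fos, and that from P2 to adult did not.

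The same cells were compared between classes in the adult. Coronary cells without Fos (2291) held 3.31 (2.22 to 5.18) times as much Hspa1a and 4.25 (2.89 to 6.52) times as much Hspb1 as endocardial cells without Fos (57), whereas the constitutive ratio was 0.914 (0.832 to 1.01). At P2 (1234 and 425 cells) the Hspa1a ratio was 0.741 (0.610 to 0.904) and the Hspb1 ratio 1.06 (0.868 to 1.30). The inducible sum there was at 1.11 (1.03 to 1.19) and the constitutive sum at 1.04 (1.01 to 1.07), so that the inducible genes as a group were not lower in coronary cells. Adult endocardial cells held 163 CPM of Fos against 1960.0 in coronary cells. In these 75 cells Hspa1a was not higher with Fos, at 3 UMIs in 18 cells with Fos and 24 UMIs in 57 cells without (a ratio of 0.321, from 0.0618 to 1.06).

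The 14 immediate-early genes listed, Fos and Atf3 among them, also differed with stage and class. In coronary cells 4 of 14 were higher at E15 than at E12 (13.3% of all genes) and 12 at P2 than at E15 (19.4%). In the adult 4 were higher than at P2 (11.4%) and 1 was lower (13.4%). Against endocardial cells, 10 of 14 were higher in coronary cells at P2 (11.2% of all genes) and 11 in the adult (22.6%). None was lower at either stage (10.4% and 13.9%). All 14 were detected in both classes at all stages, and their sum was 1062, 1701, 7092 and 9975 CPM in coronary cells and 1766, 1948, 3201 and 2189 CPM in endocardial cells. Their part in the chaperone levels was not tested.

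Atf3, a stress-induced transcription factor, gave a similar picture from fewer cells. It was found in 103, 117, 1464 and 626 endothelial cells. Adult cells with Atf3 were higher in all 6 inducible members and in Hspa8 (3.6% of all genes), with none lower (3.75%), and Hsph1 had the largest ratio, at 107 against 18.5 CPM, 5.76 (4.50 to 7.40) times. Hspa8 stood at 3338 against 1596 CPM, 2.09 (2.02 to 2.16) times. At P2, Hspa1a, Hspa1b and Dnajb1 were higher (1.11%), at E15 Hspa1b and Hspb1 (7.14%), and at E12 Hspb1 (6.11%). No member was lower at these stages (2.89%, 14.6% and 14.5% in the same order). Hspb1 had the largest ratio of the members in both embryonic libraries, at 262 against 104 CPM at E12 and 272 against 90.6 CPM at E15.

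Detection of inducible members in the same cell was compared in endothelial cells thinned to 500 UMIs. Of the 15 pairs of inducible members, 4 at E12, 7 at E15, 5 at P2 and all 15 in the adult shared more cells than independent detection would give, with an interval above 1. The ratio itself was above 1 in 15, 13, 15 and 15 pairs. Intervals are narrower where more cells are positive, so that the counts by interval do not rank the stages. The share over all pairs of genes was not computed. No interval of these pairs lay below 1, and 2 pairs shared no cell at E15. In the adult this excess was not confined to them. Inducible with constitutive members also had intervals above 1, except Hspd1 with Hspa1b, Hspb1 and Hsph1, and Hsph1 with Hsp90ab1 and Hspe1. Among the constitutive pairs, only Hsp90ab1 with Hspa8 and with Hspe1 had one. Hspa1a and Hspa1b shared 2.34 times as many cells as independent detection would give in the youngest library (19 cells), and 6.39 (25), 4.38 (21) and 2.33 (213) times in the others. Hspa1a and Hspb1 shared 2.46, 4.37, 2.55 and 1.54 times as many. The chaperonin pair shared 0.767, 1.12, 1.08 and 1.15 times as many, and every interval included 1. With Fos, 4, 2, 5 and 6 of the 6 inducible members had an interval above 1, and 6, 5, 6 and 6 had a ratio above 1. No constitutive member had one at E12 or E15, and Hspa8 alone did at P2. In the adult Hsp90ab1 (1.20), Hspa8 (1.22), Hspe1 (1.31) and Hspd1 (1.32) all did, so that such an interval was not particular to the inducible members. Hspa1a and Fos shared 1.82, 1.13, 1.75 and 2.03 times as many, with an interval at E15 of 0.700 to 1.73. Hspb1 and Fos shared 1.88, 1.79, 1.37 and 1.50 times as many. The largest ratio possible is smaller where a gene is found in more cells, so that the ratios of shared cells do not rank the stages either. At E15, cells with Hspa1a therefore held Hspa1b and Hspb1 more often than independent detection would give, by a larger factor than Fos.

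Dividing cells were compared because HSP90 serves many kinases of the cell cycle. Endothelial cells with at least 2 UMIs of Mki67, Top2a, Ccnb1, Cdk1 and Ube2c were set against those with none. No member was counted at E12 (5.42% of all genes higher and 4.16% lower), E15 (6.33% and 6.87%), P2 (6.02% and 10.1%) or in the adult (12.8% and 25.7%). Hsp90aa1 was the member that stood highest in dividing cells at all stages, at 1.58, 1.66, 1.67 and 1.92 times, the last from 37 dividing cells. Hspd1 was at 1.36, 1.40 and 1.44 times at the first 3 stages, whereas Hspa1a was at 0.765, 1.19, 0.782 and 0.695 times. The inducible HSP90 and the stress HSP70 thus stood on opposite sides of 1 at 3 of the 4 stages.

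Few genes of the wider chaperone network were counted between P2 and adult coronary cells, where 11.4% of all genes were higher and 13.4% lower. Of the heat shock factors and their binding protein, 0 of 3 compared genes were higher or lower in the adult than at P2 (Hsf1 0.62 log2 units, Hsbp1 -0.38). Among HSP90 co-chaperones 0 of 9 were higher and Fkbp5 was lower, by -1.48. Of 12 HSP70 relatives and exchange factors, Bag3 was higher (1.13) and 2 were lower (Bag2, -1.39). Of 11 J-domain proteins 2 were higher, led by Dnaja4 (3.34, at 50.9 against 5.03 CPM), with Dnajc2 lowest at -0.43. Among 5 small heat shock proteins 2 were higher and 1 lower. Hspb2 was highest (3.75, from 41 and 10 UMIs) and Hspb8 lowest (-1.03). None of 7 TRiC subunits (median -0.48, Cct7 -0.22 and Tcp1 -0.69), 7 mitochondrial (Dnaja3 0.63, Grpel1 -0.45) or 12 chaperones of the endoplasmic reticulum (Hsp90b1 -0.18, Sdf2l1 -0.79) was counted, where the inducible members had a median of 2.06.

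From E15 to P2, where 19.4% of all genes were higher and 5.44% lower, no gene of these lists was lower. Higher at P2 were 3 of 12 HSP70 relatives (Hspa2, 2.37), 4 of 11 J-domain proteins (Dnaja4, 3.08, from 1 UMI at E15), 3 of 4 small heat shock proteins (Hspb6, 2.59, from 1 UMI at E15), 1 of 7 mitochondrial chaperones (Trap1, at 16.7 and 35.7 CPM) and 3 of 12 chaperones of the endoplasmic reticulum. Hspa5, the HSP70 of that compartment, led the last group at 188 CPM at E15 and 647 CPM at P2. None of 3 heat shock factors, 9 HSP90 co-chaperones and 7 TRiC subunits was counted. In adult cells with Fos, where 3.24% of all genes were higher, 2 of 11 J-domain proteins (led by Dnaja1, 1.03) and 1 of 5 small heat shock proteins (Hspb7, 1.05) were higher, against 0 of 9 HSP90 co-chaperones and 0 of 11 HSP70 relatives (led by Bag3, 0.96). At P2 no gene of these lists was higher in cells with Fos, against 1.96% of all genes.

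**Figure D5:**
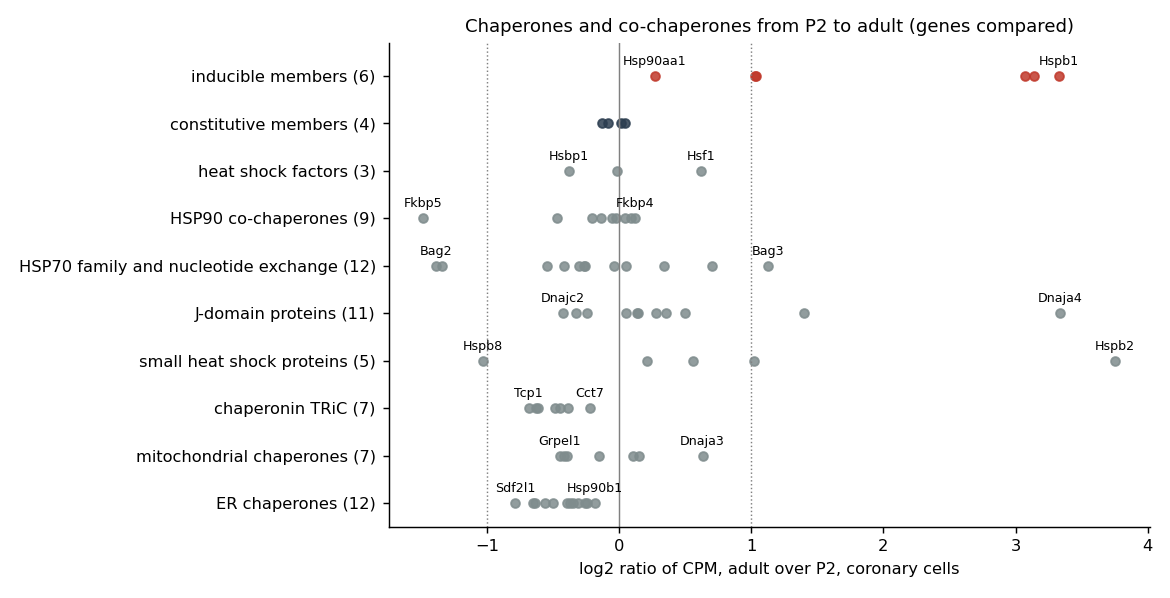
Log2 ratio of CPM between adult and P2 coronary cells (x) for the members and 8 lists of chaperones and co-chaperones (y, with the number of genes compared), where each point is 1 gene, dotted lines mark a ratio of 2 in either direction and the outermost genes of each list except the constitutive members are named. The inducible members (red) lie between 0.27 and 3.33, the constitutive members (dark) between -0.13 and 0.04, and outside the members Dnaja4 and Hspb2 lie as far out.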

How the data were processed

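The authors prepared 10x Genomics 3′ libraries and mapped the reads with Cell Ranger 2.2 to mm10, and the deposited files hold whole UMI counts for each gene and barcode without normalization. The E12 file held all barcodes, and those with 452 or more UMIs were taken as cells. The other files were taken as deposited, with no further filter and no doublet caller in the main values. Counts were summed over cells of a class and given as CPM. Ratios have exact conditional binomial, levels exact Poisson and shares exact binomial 95% intervals, which leave out variation between animals. A count of 0 allows up to 3 counts. Cells were thinned to 500 UMIs without replacement (seed 1). A gene was compared with 20 or more UMIs. The ratio computation was tested on simulated data. The members and lists were chosen with earlier results of these data known. Members were always named, as were the genes with the highest and lowest ratio of each list (1 of them for some lists), and the 5 genes most alike to Hspa1a and Hspa1b at each stage. Coordinates were taken from GENCODE vM21, whose identifiers matched for 10 of 10 members. Alternatives were the study's limits on UMIs, genes and mitochondrial share, doublet removal (score over 0.15), other classes, CPM denominators and means over cells. Python 3.11.15, numpy 2.4.6, scipy 1.17.1, pandas 2.3.3, scanpy 1.11.5 and Biopython 1.88 were used.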

Additional observations from a re-analysis of the deposited data

Results flagged for a closer look

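Chaperone RNA was present in E12 barcodes too poor to be called cells. In 155183 barcodes of 1 to 49 UMIs, which no comparison used, the inducible members were at 1184.4 CPM and the constitutive members at 3616 CPM. The called E12 cells held 971 and 3752 CPM. What drew attention is a signal in data outside the comparisons, above the limit that a count of 0 allows. Hspa1a was at 279 CPM in these barcodes and at 167 CPM in cells, and Hspe1 at 625 and 764 CPM. The deposited counts of the other stages held only the barcodes taken as cells, so that the same could not be looked at there.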

How the results depend on the processing

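No paired analysis was possible because each stage had 1 library and no test was made. Of 90 values recomputed for the 10 main sums, 77 kept their sign and 63 moved by less than their interval. The following are log2 ratios of the inducible or constitutive sum. With Hsp90aa1 left out, the inducible sum gave 0.61 (E15 over E12), 0.82 (P2 over E15) and 2.93 (adult over P2) in coronary cells, and with Fos over without 0.40, 1.54 and 2.33 at E15, P2 and adult. With CPM taken without mitochondrially encoded, haemoglobin and ribosomal protein genes, P2 over E15 was 0.41 for inducible and -0.13 for constitutive genes (endocardial -0.12), and adult over P2 was 2.17 and -0.041. In cells without a Fos UMI, P2 over E15 was -0.16 and -0.11, adult over P2 1.54 and -0.21, and inducible over constitutive in adult coronary cells -0.76 in place of 0.35. As a mean over cells, adult over P2 was 2.13 and -0.060, and the Fos ratio 0.72 at E12 and 1.06 at P2. In thinned cells the Fos ratio was 0.82 at E12 and 2.11 in the adult, and with classes called on thinned cells the constitutive E15 over E12 was -0.16. In coronary cells only, the Fos ratio was -0.18 at E12 and 1.06 at P2, and the Atf3 ratio at E12 -0.48. With at least 2 Fos UMIs it was 0.79 (E12), 1.11 (P2) and 2.55 (adult). Adult over P2 was 2.204 without cells holding a blood marker UMI, an alternative chosen after seeing the data. The cause of these moves was not tested. Counts limit the E12 coronary values (156 inducible UMIs in 113 cells) and the adult endocardial values (146 in 75 cells). When classes were called again on thinned counts, 29 cells were coronary at E12 and 50 endocardial in the adult.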

Other observations

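Within adult coronary cells, Hspa1a differed between vessel types. The vessel genes were looked at after the values of the classes were known, and the values are a description. Cells with capillary genes (Timp4, Rgcc and Car4, 1871 cells) held 3341 CPM, cells with artery genes (Cxcl12, Glul and Alpl, 1249 cells) 1705 CPM, cells with large artery genes (Fbln5, Eln and Gkn3, 148 cells) 885 CPM and cells with vein genes (Prss23, Vwf and Ptn, 106 cells) 693 CPM. Hspb1 was at 2110.2, 1075, 599 and 921 CPM, so that vein cells held more Hspb1 than Hspa1a. At P2 artery cells were highest for Hspa1a, at 419 CPM, followed by capillary cells at 302, large artery cells at 216 and vein cells at 172 CPM. The capillary and artery cells thus stood in another order in the 2 libraries.

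Outside the 10 members, the genes with the highest ratio of CPM in endothelial cells with 2 or more UMIs of Hspa1a and Hspa1b over cells with none differed between stages. At E12 (233 against 2134 cells) they were Pf4 (5.89 times), Twist1, Atf3, Unc5b and Thbs1, and the member Hspb1 was at 3.09. At E15 (199 against 3709 cells) they were Gm9774 (3.99), Cdkn1a, Kpna2, Htt and Dera. The members Hspb1 (7.71) and Dnajb1 (3.14) stood among them at E15, with Hspb1 above all of them, whereas Fos was at 1.05. At P2 (966 against 4137 cells) Cryab, a small heat shock protein, led at 4.30, followed by Aspn, Cxcl10, Fez1 and Higd1b. Cryab was at 1.91 at E12 and 2.15 at E15, from 18 and 12 UMIs in the cells with Hspa1a and Hspa1b. It was at 0.683 (0.522 to 0.891) in the adult. In coronary cells alone Cryab was at 6.05 at P2 and at 0.953 (0.706 to 1.29) in the adult, so that the adult interval there included 1. The highest genes in the adult (1511 against 2041 cells) were Hba-a2 (63.7), C1qb, C1qc, Hba-a1 and C1qa (21.6). These mark red cells and macrophages, and 10 cells held 94.0% to 96.2% of the UMIs of each. Counting only genes that are not members above it, among 7104 genes ranked, Fos was at rank 8 (9.78 times), Atf3 at 9 (8.89), Dnajb1 at 20 (5.64) and Hspb1 at 26 (4.37). Adult coronary cells without a UMI of the red cell and immune markers (3792 of 4077, chosen after seeing the data) held 2297 CPM of Hspa1a and 1525 CPM of Hspb1, against 2363 and 1544 CPM in all. The 285 cells with such a UMI held 3008 (2879 to 3142) CPM of Hspa1a and 1730 (1632 to 1832) CPM of Hspb1. The UMIs of the red cell and macrophage genes thus lay in very few cells. The part of other cell types in the chaperone levels was not tested.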
